A study of Bos taurus with 24 samples.

Results

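RNA-Seq of Angus dermal fibroblasts at 2 h and 8 h of exposure to lipopolysaccharide (LPS) was used to follow which transcripts decayed, persisted or started late between these hours. The comparison rests on 8 of the 24 samples of the series, the 4 labelled Angus at hour 2 and the 4 labelled Angus at hour 8, and the number in the sample title paired them by animal. All were cultures of third-passage fibroblasts from shoulder skin of Angus females of about the same age, which had received 100 ng/ml of LPS in medium with serum. Lysates of duplicate wells had been pooled, so that each sample was 1 animal at 1 hour. The Angus cultures at hour 0 served only to place each transcript before LPS, and the Holstein cultures at hours 2 and 8, from 4 females handled in the same way, were set beside the Angus values. No untreated wells of hours 2 and 8 were among the samples, so an effect of LPS cannot be told apart from one of fresh medium or of time in culture.

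LPS, shed from the outer membrane of Gram-negative bacteria, is recognised by Toll-like receptor 4 and its co-receptors. Signalling through MYD88 releases NF-kB and activates MAP kinases, which switch on short-lived messenger RNAs for transcription factors, cytokines and chemokines within minutes to hours. Signalling through TICAM1 (TRIF) leads to type I interferon and, in a slower wave, to interferon-stimulated genes. The early wave also holds the inhibitors that end it, among them NFKBIA and TNFAIP3, phosphatases that act on MAP kinases, and nucleases that degrade cytokine messenger RNA. In skin, fibroblasts take part in the first defence by secreting chemokines that draw in neutrophils and monocytes.

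The 8 libraries held 42807179 to 63996542 reads, of which 93.99% to 96.54% matched the genome, and 61457138 to 97786777 counts. At that depth, 3 counts stood for 0.0307 to 0.0488 CPM (counts scaled to a common library size). One library, animal 3 at hour 2, stood apart, with 79.47% of its counts in gene rows, 23.2% in its 10 largest rows and a COL1A1 level of 36871 CPM against 7510 to 10087 CPM in the other 3 animals. Covered bases per count of COL1A1 were 66.9 in that library and 113.2 to 119 in the other 7, although only 3 of 12115 rows compared had fewer covered bases per count there by more than 1.3 times. The Angus library of animal 4 at hour 0 had a like value for COL1A1 (67.1 covered bases per count), and it enters every comparison with hour 0. The 10 fibroblast markers were present in every library, with a sum of 43685 to 88652 CPM at hour 2 and 38139 to 59210 CPM at hour 8, and none was called between the hours. Markers of keratinocytes summed to at most 2.21 CPM, those of endothelial cells to 3.33 CPM, of leukocytes to 5.21 CPM and of melanocytes to 3.39 CPM, with none called. The 5 smooth muscle and pericyte markers summed to 395 to 538 CPM at hour 2 and 254 to 376 CPM at hour 8, and 1 of them, NOTCH3, was lower at hour 8. In bulk RNA, fewer cells of a type cannot be told apart from less RNA per cell.

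Of 20430 rows tested, 328 were lower at hour 8 than at hour 2 (1.61%) and 230 were higher (1.13%), at a false discovery rate (FDR) under 0.05, a fold change (FC) of at least 2 and a mean above 1 CPM. A row was either the whole span of an annotated gene with its introns or a stretch that carries no symbol, and 191 of the falling and 152 of the rising rows carried a symbol. The change had the same direction in 4 of 4 animals for 320 of the lower and 221 of the higher rows, against 49.1% of all rows tested. The falls were the larger: 48 rows fell and 22 rose by 4-fold or more. Without animal 3, 336 rows were lower and 218 higher, and 287 and 180 of them were among the rows called with all animals. Scaling by total counts in place of TMM moved the median change upward by 0.178 on the log2 scale and left 203 lower and 441 higher rows, so that 68.5% of the calls were rises against 41.2% under TMM. The split between falls and rises therefore depended on the scaling.

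Against hour 0, 430 of 20352 rows were higher at hour 2 (2.11%) and 243 lower (1.19%), whereas at hour 8, 168 of 20617 were higher (0.815%) and 86 lower (0.417%). These comparisons share samples with the one between hours 2 and 8, and the classes that follow are counts and carry no test of their own. A total of 209 rows decayed, having been called higher at hour 2 and then lower at hour 8. Another 61 rows persisted, being higher than hour 0 at both times with no call between them, and 46 of these had a 95% interval of the change between hours 2 and 8 within 2-fold either way, as did 91.9% of all rows tested. A further 116 rows started late, with no call at hour 2, or too few counts for a test there, and a rise from hour 2 to hour 8, and 4 rows rose at both steps. The remaining rises were 110 rows that had fallen at hour 2, and the remaining falls were 119 rows that had not been called higher at hour 2. Without animal 3, 210 rows decayed, 49 persisted and 100 started late, of which 183, 44 and 75 were the same rows. Without animal 4, these counts were 239, 71 and 154.

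The decayed rows had risen by a median of 1.69 (log2) at hour 2 and lost a median of 1.44 by hour 8. Of the 209, 169 could be tested at hour 8 against hour 0, and 25 of them were still called higher. The others had too few counts for that test. All 209 fell in each of the 4 animals. The late rows had a median of -0.51 (log2) at hour 2 against hour 0 where tested, under the limit of a call. They gained a median of 1.15 between the hours. Of the 116, 110 could be tested at hour 8 against hour 0, and 39 of them were called higher. The class therefore holds smaller dips that were made up, such as TNFSF18 (means of 14.9, 7.31 and 15.6 CPM at hours 0, 2 and 8), as well as rises from hour 0. It also holds rows already higher at hour 2 that were not tested or not called there. Examples are ISG15 (means of 0.03 and 0.85 CPM at hours 0 and 2), VCAM1 (0.282 and 3.225 CPM) and TLR2 (log2 FC 0.92, FDR = 0.000193). For such rows a late start is not shown. Rows that had fallen at hour 2 regained a median of 1.31, which brought them to a median of -0.04 against hour 0. The 119 falls without a called rise had a median of 0.64 (log2) at hour 2 against hour 0 where tested. That is under the limit of a call, so this class also holds rows that had risen less at hour 2. They lost a median of 1.15 by hour 8. Animal 3 had the highest level of the 4 animals in 111 of the 209 decayed rows at hour 2 and in 62 of the 116 late rows at hour 8.

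**Figure D1:**
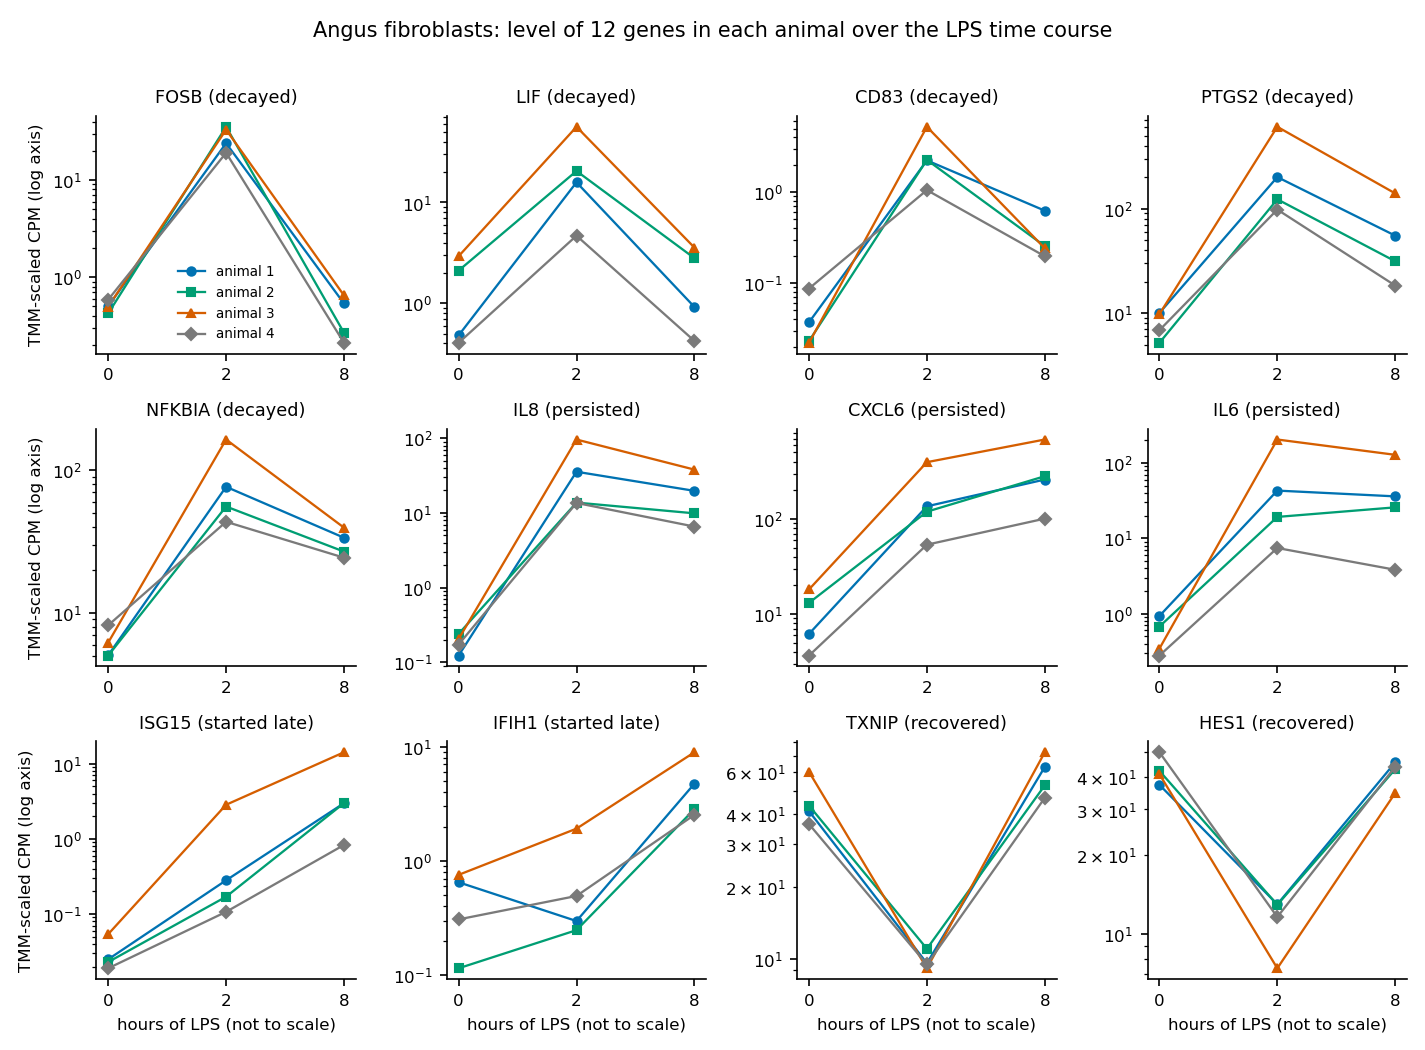
Level of 12 named genes in TMM-scaled CPM (log axis) at 0, 2 and 8 h of LPS, 1 line per Angus animal. FOSB returned from 19.04 to 35.28 CPM at hour 2 to at most 0.649 CPM at hour 8, IL8 and CXCL6 stayed far above hour 0, ISG15 and IFIH1 were highest at hour 8, and TXNIP and HES1 dipped at hour 2.

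Transcription factors of the immediate-early class, whose genes are switched on within minutes of a stimulus without new protein synthesis, included the steepest fall, that of FOSB. FOSB, a partner of JUN in the AP-1 factor, measured 23.91, 35.28, 32.97 and 19.04 CPM at hour 2 in animals 1 to 4, and 0.536, 0.268, 0.649 and 0.211 CPM at hour 8. The groups did not come near each other, and hour 0 had stood at 0.424 to 0.587 CPM (67.8-fold lower at hour 8, log2 FC -6.08 ± 0.23 SE, FDR = 9.96e-126). EGR3, a zinc finger factor, measured 3.74, 5.00, 6.04 and 3.47 CPM at hour 2 and 0.07 to 0.199 CPM at hour 8, a 33.8-fold fall in 4 of 4 animals (log2 FC -5.08 ± 0.27, FDR = 1.52e-105). NR4A1, an orphan nuclear receptor, fell by 2.97-fold from 80.3, 52.5, 128 and 49.1 CPM to 27.8, 16.4, 62.4 and 11.8 CPM, with each animal lower but the groups overlapping. NR4A3, of the same family, also fell, by 1.07 on the log2 scale, and ended 1.06 (log2) above hour 0.

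Of the 30 immediate-early factors tested, 4 fell and 1 (HES1) rose, against 1.61% and 1.13% of all rows. Their median change was -0.39 against 0.01 over all rows. The median kept its sign when libraries were scaled by total counts (-0.21). The textbook members FOS and JUN were not called. FOS stood at 9.05, 12.6, 16.6 and 7.86 CPM at hour 2 and at 9.46, 15.6, 19.4 and 6.97 CPM at hour 8 (log2 FC 0.12, FDR = 0.489), below its 20.5 to 24.6 CPM at hour 0, and JUN differed by -0.07 (FDR = 0.433). FOS, JUN and EGR1 lie outside the rule by which genes were named and were added after their values were seen. EGR1, at 10.25 to 38.3 CPM at hour 2 against 22.88 to 60.05 CPM at hour 0, had a log2 FC of -0.88 from hour 2 to hour 8 that stayed under the 2-fold limit.

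LIF, HBEGF and WNT10B encode secreted signals and were among the 10 largest falls. LIF, a cytokine of the IL6 family, measured 15.9, 20.5, 56.4 and 4.68 CPM at hour 2 and 0.918, 2.80, 3.57 and 0.422 CPM at hour 8. The groups did not overlap, although animal 3 at hour 8 came close to animal 4 at hour 2 (12.2-fold lower, log2 FC -3.61 ± 0.21, FDR = 1.26e-54). At hour 8 LIF did not pass the test against hour 0 (log2 FC 0.41, FDR = 0.0893).

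HBEGF, a growth factor that binds the EGF receptor, fell by 9.09-fold, from 2.22 to 6.86 CPM to 0.262 to 0.931 CPM. WNT10B, a WNT ligand, fell by 8.49-fold, from 5.16 to 14.3 CPM to 0.619 to 1.73 CPM. The 2 groups of 4 were apart for both genes. In the list of EGF, FGF and related growth factors, 2 of 15 tested genes fell (HBEGF and PDGFA) and 1 rose (FGF7, which acts on keratinocytes). Over all rows 1.61% fell and 1.13% rose, and the median of the list was -0.04. PDGFA fell by 2.26-fold after a rise at hour 2 that was under the limit of a call (log2 FC 0.77, FDR = 7.24e-08). FGF7 rose by 2.17-fold. The FGF7 row overlaps C10H15orf33 on the other strand, and reads were counted without regard to strand.

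The other genes among the 10 largest falls had varied roles. RGS16, which shortens signalling by G protein-coupled receptors, fell with little spread between animals, from 27.7, 37.5, 55.5 and 11.7 CPM to 3.67, 5.12, 6.70 and 1.42 CPM (log2 FC -2.96 ± 0.09, FDR = 3.21e-210), and it remained 1.21 (log2) above hour 0. CD83, a surface marker best known from activated dendritic cells, was at 0.022 to 0.087 CPM at hour 0, at 2.23, 2.26, 5.23 and 1.05 CPM at hour 2 and at 0.625, 0.255, 0.241 and 0.197 CPM at hour 8, a 7.68-fold fall. XIRP1, an actin-binding protein of striated muscle, fell by 49.2-fold with wide spread at hour 2 (4.40, 21.2, 43.7 and 3.85 CPM) and none above 0.415 CPM at hour 8. Also among the 10 largest falls were C13H20orf112 (9.94-fold) and LOC518986, which RefSeq now names PITPNM3 (7.27-fold).

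Prostaglandin synthesis showed a fall at one enzyme and a rise at another. PTGS2 (cyclooxygenase 2), the inducible enzyme that converts arachidonic acid to prostaglandin H, measured 201, 123, 608 and 98.1 CPM at hour 2 and 55.2, 31.4, 140 and 18.4 CPM at hour 8. It fell by 4.24-fold, in 4 of 4 animals (log2 FC -2.09 ± 0.10, FDR = 2.61e-82) and still stood 2.57 (log2) above hour 0. PLA2G4A, the phospholipase that releases arachidonic acid, rose from 22.2, 12.7, 26.4 and 18.5 CPM at hour 2 to 54.1, 37.7, 90.0 and 39.2 CPM at hour 8 (2.70-fold, FDR = 6.87e-32). It was counted with the late rows, but had already been somewhat higher at hour 2 than at hour 0 (log2 FC 0.34, FDR = 0.000462). A late start is therefore not shown for PLA2G4A. Of the 10 tested genes of this list 1 fell and 1 rose, against 1.61% and 1.13% of all rows. The PTGS2 row overlaps LOC100138376 on the other strand, so their counts are partly shared.

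**Figure D2:**
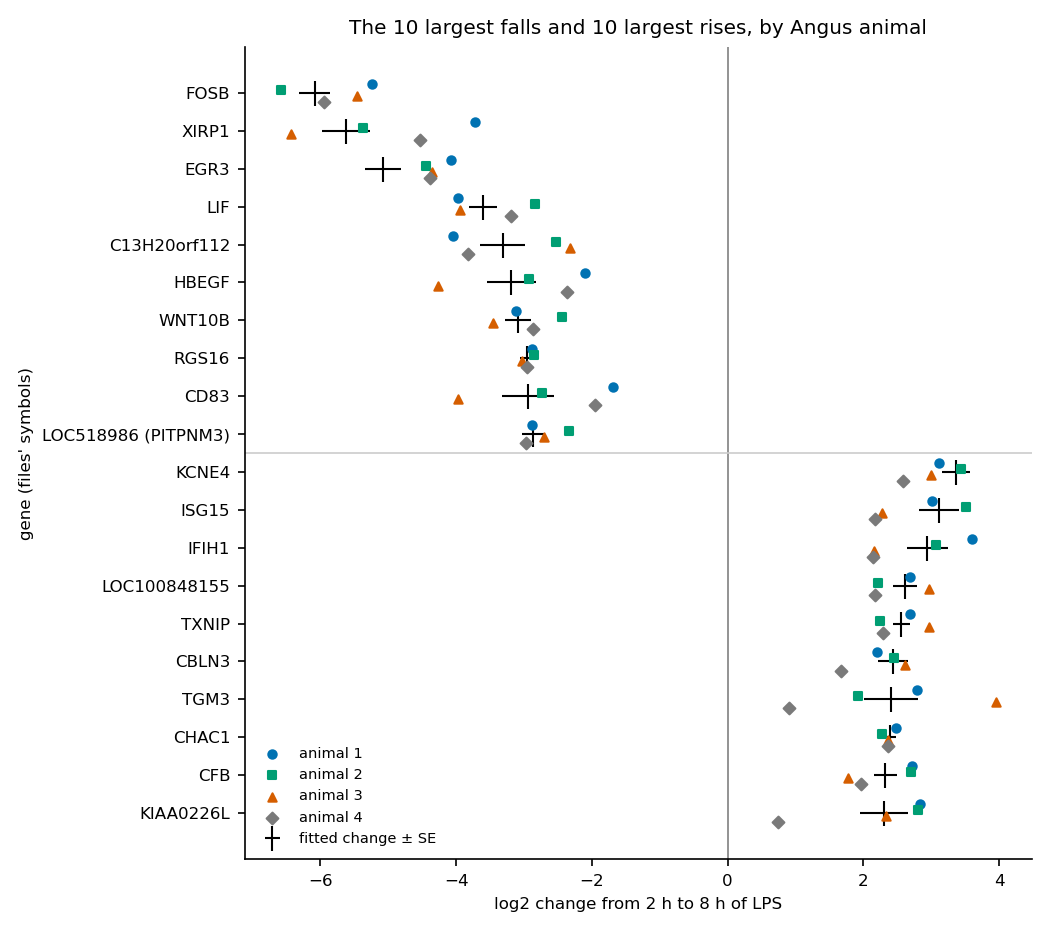
Log2 change from 2 h to 8 h of LPS for the 10 named genes with the largest fall and the 10 with the largest rise. Points are the 4 Angus animals, computed from TMM-scaled CPM plus 0.1, and black crosses are the fitted change ± SE, from -6.08 for FOSB to 3.37 for KCNE4; the 0.1 CPM added per animal pulls the points of low genes such as EGR3 toward 0, and all 4 animals lay on the same side of 0 in every gene.

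Feedback inhibitors of the response were among the transcripts that declined and yet stayed above hour 0. NFKBIA, which holds NF-kB in the cytoplasm, measured 76.4, 55.6, 164 and 43.5 CPM at hour 2 and 33.6, 26.9, 39.6 and 24.4 CPM at hour 8, against 5.03 to 8.19 CPM at hour 0. The level fell in each animal (2.42-fold, log2 FC -1.27 ± 0.18, FDR = 1.34e-10) and at hour 8 was still 2.35 (log2) above hour 0. TNFAIP3 (A20), a ubiquitin-editing enzyme that shuts off NF-kB signalling, measured 18.9, 21.4, 50.6 and 6.79 CPM and then 6.22, 5.74, 7.64 and 2.65 CPM, a 3.73-fold fall that left it 3.26 (log2) above hour 0. NFKBIZ, a nuclear cofactor of NF-kB, fell by 2.85-fold and remained 1.34 above hour 0.

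TNFAIP2 fell by 3.51-fold from 1.41, 2.31, 12.12 and 0.859 CPM, but its row covers only a short stretch of an unplaced scaffold, and without animal 3 it no longer reached the filter on low values. At hour 0 TNFAIP2 had stood at 0 to 0.928 CPM, and its counts were too few for a test of the step to hour 2. Altogether 4 of 21 tested NF-kB genes fell and none rose (median -0.37, or -0.19 when scaled by total counts), against 1.61% of all rows that fell. Without animal 3, 3 fell. The subunits themselves moved less: NFKB1 and RELB, named after their values were seen, differed by -0.83 and -0.64, under the 2-fold limit, and RELA by -0.08 (all log2).

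DUSP5, a phosphatase of nuclear ERK, fell by 4.64-fold, from 10.5, 7.63, 12.4 and 6.61 CPM to 3.1, 1.65, 1.43 and 1.89 CPM. It was the 1 member called among 13 tested MAP kinase phosphatase and Sprouty genes, against 1.61% of all rows that fell and 1.13% that rose. ZC3H12A (regnase-1), a nuclease that degrades cytokine messenger RNA, fell by 2.11-fold from 22.3, 15.7, 45.0 and 10.5 CPM to 10.9, 8.76, 15.2 and 5.80 CPM. This call was lost without animal 3, when the change was -0.92. PNRC1, which was listed with the regulators of mRNA decay, rose by 2.15-fold. Of the 16 tested genes of that list 1 fell and 1 rose, against 1.61% and 1.13% of all rows, and the other 14 were not called. IRF5, a transcription factor of the interferon system, fell by 3.85-fold to a level that did not pass the test against hour 0 (log2 FC -0.41, FDR = 0.161), whereas SOCS2, an inhibitor of cytokine receptor signalling, rose by 2.27-fold. These were the only calls among 20 tested IRF, STAT and SOCS genes, against 1.61% of all rows that fell and 1.13% that rose.

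Several chemokines persisted. IL8 (CXCL8), which attracts neutrophils, measured 35.7, 13.8, 96.3 and 13.6 CPM at hour 2 and 19.8, 9.89, 38.1 and 6.57 CPM at hour 8, from 0.123 to 0.24 CPM at hour 0. Its level at hour 8 was still 6.34 (log2) above hour 0, and the change from hour 2 (log2 FC -0.93 ± 0.14, 95% interval -1.19 to -0.67, FDR = 2.11e-10) was lower in 4 of 4 animals but under the 2-fold limit. Without animal 2, it was -1.09 and passed that limit. CCL2, which attracts monocytes, measured 107, 89.2, 276 and 52.4 CPM and then 83.2, 67.1, 120 and 39.9 CPM (log2 FC -0.59 ± 0.15).

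CXCL6 and CCL5 moved the other way and had their highest levels at hour 8. CXCL6 (CXCL5 in RefSeq), another neutrophil attractant, measured 136, 119, 395 and 53.7 CPM at hour 2 and 260, 281, 684 and 101 CPM at hour 8 (log2 FC 0.97 ± 0.09, FDR = 1.44e-22), just under the 2-fold limit, which it passed without animal 3 (1.03) and under total-count scaling (1.15). CCL5, which attracts T cells and monocytes, measured 3.12, 8.87, 21.0 and 1.45 CPM and then 6.28, 16.9, 33.3 and 3.01 CPM (log2 FC 0.90 ± 0.12), and it passed the limit under total-count scaling (1.08). For both genes the ranges of the groups overlapped while each animal was higher at hour 8.

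CXCL2 was called. It fell by 2.44-fold, from 142, 90.9, 356 and 50 CPM to 64.8, 45.2, 84.8 and 25.6 CPM, and remained 4.19 (log2) above hour 0. Its row spans a long stretch of chromosome 6 (90695494 to 90824841 on UMD v3.1) that also holds LOC100847175, and CXC chemokines are close relatives, so the value is less certain. CCL26 fell by 2.15-fold at 0.113 to 2.29 CPM without an earlier rise, and lost the call without animal 4 (-0.69). Of the 8 chemokines tested, 2 fell and none rose, against 1.61% and 1.13% of all rows.

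IL6 persisted with wide differences between animals. Its level was 42.9, 19.2, 204 and 7.44 CPM at hour 2 and 36.0, 25.7, 128 and 3.83 CPM at hour 8, from 0.279 to 0.934 CPM at hour 0. The difference did not pass the test (log2 FC -0.36, 95% interval -0.75 to 0.03, FDR = 0.172), and lay at -0.62 without animal 2 and -0.17 without animal 4. It was 5.58 (log2) above hour 0 at hour 8. Another row with this symbol, on chromosome 8, held at most 0.074 CPM. TNF and CCL20 were under the filter on low values and were not tested. TNF was detected at hour 2 at 0.116, 0.196, 1.44 and 0.054 CPM and at hour 8 at 0.026, 0.013, 0.042 and 0 CPM, near or under the level of 3 counts, and CCL20 at 0, 0.418, 6.39 and 0.021 CPM and then 0.523, 0.509, 2.97 and 0.014 CPM. Animal 3 had the highest level of IL8, CCL2, CXCL6, CCL5, IL6, TNF and CCL20 at both hours, and of CXCL2 as well.

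Also far above hour 0 at both times were KCNN4, a calcium-activated potassium channel, and DRD3, a dopamine receptor. KCNN4 was at 2.14 to 4.88 CPM at hour 2 and 1.25 to 3.05 CPM at hour 8 (log2 FC -0.71 ± 0.15). DRD3 was at 1.06 to 2.25 CPM and then 1.35 to 4.60 CPM (0.84 ± 0.26), and it passed the limit without animal 4 (1.08) and under total-count scaling (1.02). In the list of cytokines and colony-stimulating factors, 2 of 15 tested genes fell (LIF and CSF1) and 1 rose (TNFSF18), against 1.61% and 1.13% of all rows. CSF1, the macrophage growth factor, fell by 2.12-fold to a level 0.63 (log2) under that of hour 0. Its rise at hour 2 had been under the limit of a call (log2 FC 0.47, FDR = 0.0205). CSF1 lost its call without animal 3 (-0.79), and TNFSF18 without animal 2 (0.96) or 3 (0.92).

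Interferon-stimulated genes, the list with the most rows tested, held the largest number of rises of the 25 lists. Of 41 tested, 10 were higher at hour 8 than at hour 2 and none lower, against 1.13% of all rows that were higher. Their median change was 0.66, or 0.84 under total-count scaling, and 36 of 41 had a positive sign. Without animal 3, 7 of them were higher; ISG15 then no longer reached the filter. In animal 3 the 10 genes rose by a median of 1.73 (log2), against 1.25, 1.29 and 1.05 in animals 1, 2 and 4, and its level was the highest of the 4 animals in 9 of the 10 at hour 8.

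ISG15, a ubiquitin-like protein that is conjugated to other proteins in antiviral defence, was at 0.019 to 0.054 CPM at hour 0, at 0.281, 0.17, 2.84 and 0.107 CPM at hour 2 and at 2.98, 2.99, 14.2 and 0.83 CPM at hour 8. Each animal rose, and animal 3 at hour 2 had already come close to the level that animals 1 and 2 had at hour 8 (8.62-fold, log2 FC 3.11 ± 0.29, FDR = 9.93e-23). Its step from hour 0 to hour 2 was not tested, because too few libraries reached the filter. IFIH1 (MDA5), a sensor of double-stranded RNA, measured 0.298, 0.248, 1.92 and 0.494 CPM and then 4.74, 2.84, 8.95 and 2.53 CPM, so that the groups did not overlap (7.70-fold, FDR = 8.16e-19).

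GBP5, a guanylate-binding protein, rose by 4.22-fold, from 0.38, 1.84, 3.16 and 1.36 CPM to 3.02, 6.58, 11.6 and 5.16 CPM. Its row overlaps GBP6 on the same strand. BST2 (tetherin), which holds enveloped viruses at the cell surface, was 1 of the 4 rows that rose at both steps, from 1.63 to 2.72 CPM at hour 0 to 2.28 to 9.28 CPM and then 7.39 to 31.5 CPM (3.33-fold). The other 6 called genes of the list, named here in addition to the rule, were MX1, IFIT3, SAMD9, EPSTI1, DTX3L and PARP9, with log2 FC from 1.00 to 1.57.

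Genes of this list differed in where they started. SAMD9 had been called lower at hour 2 than at hour 0 (log2 FC -1.03), and IFIT3, at -0.95, had not. IFIT3 went from 0.985 to 4.03 CPM at hour 0 through 1.09 to 1.68 CPM at hour 2 to 2.99 to 3.80 CPM at hour 8, within the range of hour 0. Against hour 0, 5 of the interferon-stimulated genes were called higher at hour 8, a comparison in which ISG15 had too few counts for a test. CMPK2, a mitochondrial kinase, was the 1 member that persisted, with 1.57 to 2.83 CPM at hour 2 and 0.75 to 3.08 CPM at hour 8 (log2 FC -0.21, FDR = 0.667). DTX3L and PARP9 are neighbours that overlap on opposite strands and share counts.

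Among genes of antigen processing, PSMB9 was called. PSMB9, a subunit of the immunoproteasome, rose by 3.05-fold, from 0.645, 0.68, 0.516 and 0.601 CPM to 2.77, 1.51, 2.43 and 1.14 CPM, with no overlap. No other gene was called among the 18 tested immunoproteasome and class I genes, of which 15 had a positive sign (median 0.33). Over all rows 1.13% were called higher and 1.61% lower.

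CFB, TGM3 and VCAM1 also rose from hour 2 to hour 8. CFB, complement factor B of the alternative pathway, measured 0.258, 0.847, 2.52 and 0.116 CPM at hour 0, 4.53, 3.83, 54.4 and 1.37 CPM at hour 2 and 30.4, 25.4, 186 and 5.67 CPM at hour 8. It was higher at each step in each animal, with a wide spread between animals (5.01-fold from hour 2 to hour 8, log2 FC 2.33 ± 0.17, FDR = 2.42e-36). TGM3, a transglutaminase that crosslinks proteins of the epidermis, went from 6.33, 7.53, 4.91 and 11.5 CPM to 44.5, 28.8, 77.7 and 21.6 CPM with no overlap (5.31-fold, FDR = 5.83e-07), without a change at hour 2. VCAM1, an adhesion molecule for leukocytes, rose by 2.09-fold from 1.32, 4.73, 6.57 and 0.279 CPM to 3.33, 12.7, 10.3 and 0.45 CPM, and lost the call without animal 1 (0.97) or 2 (0.90). VCAM1 had stood at 0.058 to 0.605 CPM at hour 0 and was higher at hour 2 in 4 of 4 animals, but its counts were too few for a test of that step.

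Another acute-phase gene moved the other way. PTX3, a pentraxin that tags microbes, measured 2.02, 8.51, 49.7 and 1.17 CPM at hour 2 and 0.982, 6.12, 15.3 and 0.577 CPM at hour 8 (2.09-fold lower), a call lost without animal 3 (-0.80). Its row lies within that of VEPH1 on the other strand.

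Among receptors of microbial products, 3 of 17 tested genes rose and none fell, against 1.13% and 1.61% of all rows. TLR2, the receptor for bacterial lipoproteins, went from 0.951 to 2.32 CPM at hour 0 to 3.08, 2.08, 3.19 and 2.62 CPM and 7.13, 3.91, 6.33 and 6.78 CPM (2.19-fold from hour 2 to hour 8). NOD1 and NOD2, sensors of bacterial cell wall fragments inside the cell, rose by 3.45-fold and 2.03-fold from hour 2, after means of 2.296 and 10.2 CPM at hour 0, to levels that did not pass the test against hour 0 (log2 FC -0.08 and 0.16). NOD1 went from 0.444 to 0.87 CPM to 1.56 to 2.70 CPM, and NOD2 from 4.83 to 7.33 CPM to 9.5 to 14.8 CPM. NOD2 lost its call without animal 1 (0.96) or 4 (0.99). TLR4 itself was expressed at 0.364 to 1.32 CPM at hour 2 and 0.689 to 1.53 CPM at hour 8, and the difference did not pass the test (log2 FC 0.51, 95% interval -0.01 to 1.04, FDR = 0.137, and 0.22 without animal 1).

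Transcripts that had dropped at hour 2 and returned by hour 8 included several of the largest rises. KCNE4, a subunit of potassium channels, dipped from 2.68, 4.05, 16.1 and 1.1 CPM at hour 0 to 0.314, 0.418, 1.94 and 0.107 CPM and regained 3.49, 5.53, 16.3 and 1.14 CPM. The order of the animals was the same at each hour (10.3-fold rise, log2 FC 3.37 ± 0.2, FDR = 1.30e-61). CHAC1, which degrades glutathione, went from 21.3 to 28.4 CPM through 3.59 to 6.17 CPM to 20.6 to 32.2 CPM. KIAA0226L (RUBCNL in RefSeq) rose by 4.92-fold, least in animal 4, where it had dropped least at hour 2 (3.50 CPM against 0.653 to 1.05 CPM).

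TXNIP, an alpha-arrestin that restrains glucose uptake and binds thioredoxin, took the same course. TXNIP measured 41.2, 43.4, 60.0 and 36.4 CPM at hour 0, 9.62, 11.1, 9.17 and 9.51 CPM at hour 2 and 62.8, 52.7, 72.3 and 46.8 CPM at hour 8 (5.91-fold rise, FDR = 1.31e-81). ARRDC3 rose by 3.67-fold and ARRDC4 by 2.72-fold, so that 3 of 5 tested members rose, against 1.13% of all rows. LOC100848155, another of the 10 largest rises, spans TXNIP on the opposite strand and followed it (2.62 against 2.56, log2), which cannot be told apart from shared reads.

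A pair of transcriptional repressors also dipped. HES1, a Notch target, measured 12.98, 12.92, 7.38 and 11.6 CPM at hour 2 and 45.5, 42.8, 34.7 and 43.8 CPM at hour 8 against 37.3 to 49.7 CPM at hour 0 (3.79-fold, FDR = 6.74e-83). NR1D1 (REV-ERB alpha), a repressor within the circadian clock, rose by 4.60-fold, from 2.36, 3.96, 2.73 and 4.25 CPM to 16.4, 11.6, 16.8 and 15.5 CPM, and its row overlaps THRA. Of the 16 clock genes tested, 2 rose (NR1D1 and ARNTL) and 1 fell (BHLHE41), against 1.13% and 1.61% of all rows. ARNTL (BMAL1) rose late by 2.42-fold (13.4 to 16.6 CPM, then 32.1 to 38.6 CPM), and BHLHE41 decayed by 3.13-fold.

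Among the falls without a called rise at hour 2 was a receptor of vessel walls. LOC789485, which RefSeq names NOTCH3, found on smooth muscle cells and pericytes, measured 39.5, 93.8, 66.7 and 30.0 CPM at hour 2 and 13.6, 44.7, 26.8 and 11.1 CPM at hour 8, with a 2.51-fold fall in 4 of 4 animals to 1.34 (log2) under hour 0. HEY2, a Notch target, fell by 2.76-fold after a rise at hour 2. Of 8 tested genes of the Notch list these 2 fell and none rose (3 fell without animal 3), against 1.61% of all rows that fell. HES1, the Notch target that rose by 3.79-fold, was counted with the immediate-early factors and not in this list. CTGF (CCN2), a matricellular protein, fell by 2.03-fold from 2514 to 3817 CPM to 1024 to 2050 CPM, and lost the call without animal 1 (-0.93) or 4 (-0.93) and under total-count scaling (-0.84). It had been higher at hour 2 than at hour 0, under the limit of a call (log2 FC 0.60, FDR = 1.77e-08). ID3, an inhibitor of differentiation downstream of BMP, rose by 2.02-fold, with the call lost without animal 1 (0.99) or 3 (0.95).

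Several lists of matrix and housekeeping genes held no call, which does not show that each change was under 2-fold. None of 19 collagens, 14 contractile genes of myofibroblasts, 31 genes of the cell cycle and 20 of cholesterol synthesis and uptake was called in either direction. Over all rows 1.61% were called lower and 1.13% higher. All 14 contractile genes had a negative sign (median -0.32), also under total-count scaling (median -0.15), whereas the sign of the collagens and of the cholesterol genes turned with the scaling (medians -0.17 and -0.17 under TMM, 0.01 and 0.01 under total counts). Single calls in neighbouring lists were the fall of HAS2 and HMOX1 and the rise of ADAMTS6, among 14, 20 and 18 rows tested. HAS2, the enzyme of hyaluronan synthesis, fell by 2.36-fold from 8.12, 13.2, 36.6 and 7.85 CPM to 4.25, 6.15, 8.08 and 4.63 CPM, a call lost without animal 3 (-0.94). HMOX1, which breaks down heme, fell by 3.61-fold from 91.0 to 102 CPM to 22.7 to 33.2 CPM, and ADAMTS6, a secreted metalloprotease, rose by 3.03-fold.

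**Figure D3:**
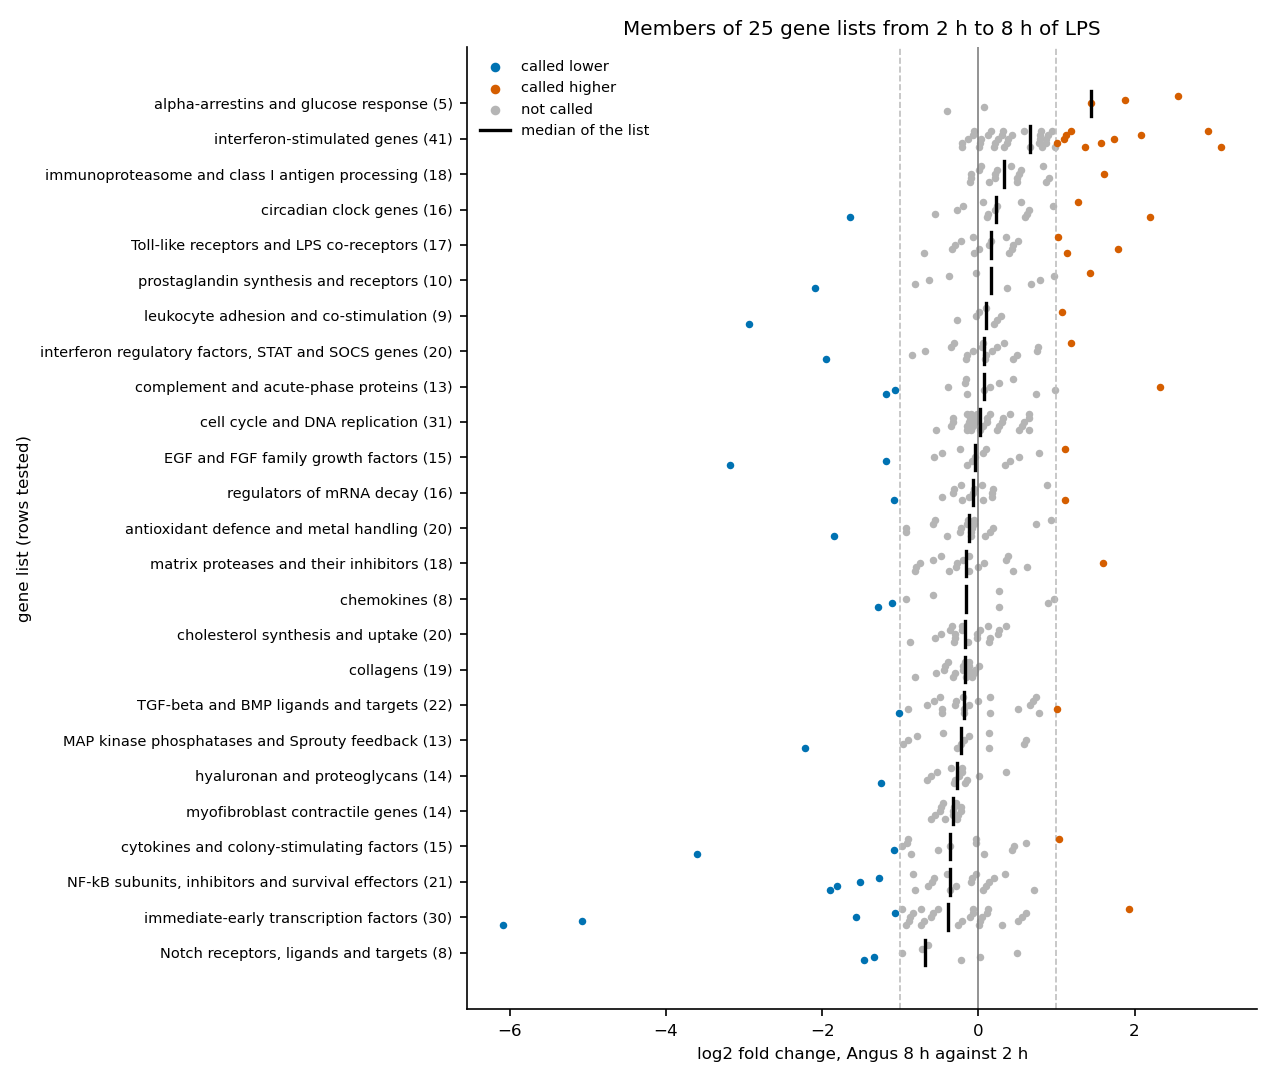
Log2 fold change at 8 h against 2 h of LPS for the tested members of 25 gene lists, 1 point per row, with rows called lower in blue, called higher in orange and not called in grey; dashed lines mark 2-fold and black bars the median of each list. Interferon-stimulated genes had 10 of 41 members called higher and none lower, and the immediate-early factors 4 of 30 lower and 1 higher.

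Intervals without a gene symbol made up 137 of the falling and 78 of the rising rows. The interval on chromosome 8 from 70480014 to 70502498 fell by 32.6-fold, from 2.297 to 5.14 CPM to at most 0.128 CPM, and ends where the EGR3 row begins. An interval on chromosome 13 from 62413980 to 62420835, which abuts C13H20orf112, fell by 14.1-fold, from 7.18 to 11.7 CPM to 0.408 to 0.925 CPM. The interval on chromosome 2 from 122257546 to 122290756 dipped from 11.2 to 12.96 CPM at hour 0 to 1.97 to 2.60 CPM and regained 10.3 to 16.04 CPM. A rise on chromosome 18 from 61664128 to 61668491 (log2 FC 2.48 ± 0.83, FDR = 0.0336) rested on 0, 0, 1.28 and 0.708 CPM at hour 2 and 1.53, 0.013, 4.21 and 0.999 CPM at hour 8, and was lost under the quasi-likelihood test, under DESeq2 and without animal 2 (2.42). It was 1.17 without animal 1 and 3.78 without animal 4, and did not reach the filter on low values without animal 3.

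The Holstein cultures gave the same comparison in samples that the Angus values do not use. There, 466 of 20533 rows were lower at hour 8 than at hour 2 (2.27%) and 384 higher (1.87%). Of the 328 falling Angus rows, 312 were tested in Holstein, 202 were called lower there and 3 higher, and of the 230 rising Angus rows 216 were tested, 107 called higher and none lower. The change itself differed between the breeds, by the interaction of breed and hour, for 112 of 20291 rows in which it was more positive in Holstein (0.552%) and for 82 in which it was more positive in Angus (0.404%).

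Of the persisting rows, 10 of 61 had a change more positive in Holstein and none in Angus. IL8 went from a mean of 39.8 ± 39.1 to 18.6 ± 14.2 CPM in Angus (SD, n = 4) and from 46.9 ± 26.4 to 84.9 ± 31.6 CPM in Holstein, with a difference of 1.90 (log2, FDR = 5.84e-19). IL6 went from 68.4 ± 91.6 to 48.4 ± 54.7 CPM in Angus and from 18.1 ± 10.3 to 74.5 ± 32.05 CPM in Holstein (difference 2.50, FDR = 2.34e-16). The Angus mean at hour 2 rested largely on animal 3 (204 CPM, against 42.9, 19.2 and 7.44 CPM in animals 1, 2 and 4). Without Angus animal 3 the difference in IL6 was 2.37. CXCL6 differed by 1.94 (FDR = 3.38e-28). PTX3 fell in Angus and rose in Holstein, with a difference of 2.14 (FDR = 6.53e-08). The calls for IL8, IL6, CXCL6 and PTX3 held in all 8 fits that left out 1 animal of either breed.

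Of the 41 interferon-stimulated genes, 23 were called higher in Holstein (median change 1.31) and 10 in Angus, and the difference itself was called for 5, all more positive in Holstein. ISG15 rose by 6.39 (log2) in Holstein against 3.11 in Angus (difference 3.14, FDR = 2.21e-08), and IFIH1, BST2 and GBP5 differed by 2.33, 2.52 and 1.53. The fifth was MX1. The call for IFIH1 was lost without Angus animal 3 (2.03) or 4 (1.78) or Holstein animal 4, and ISG15 could not be tested without Angus animal 3. CFB, VCAM1 and TGM3 rose in both breeds with differences of 1.97, 1.6 and 2.1, that of TGM3 being lost in 4 of the 8 fits that left out an animal (Angus 2 or 4, Holstein 2 or 4).

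In the opposite sense, 9 of 106 recovering rows tested had a change more positive in Angus and none in Holstein. The classes were defined by Angus values that also enter the difference, so its direction within a class is partly set by that choice. Of 109 late rows tested, also chosen for a rise in Angus, 13 were more positive in Holstein and 2 in Angus. Of 201 decayed rows tested, chosen for a fall in Angus, 21 were more positive in Holstein and 8 in Angus. HES1 rose by 1.92 (log2) in Angus, against a log2 FC of 0.30 in Holstein that was not called (difference -1.61, FDR = 9.88e-42), where it had a mean of 28.2 CPM at hour 2 against 11.2 CPM in Angus. NR1D1 differed by -1.46 (FDR = 2.80e-06) and NOD1 by -1.32 (FDR = 0.0244), the latter called in only 3 of the 8 fits that left out an animal. Among decaying genes, DUSP5 fell by 4.15 (log2) in Holstein and 2.21 in Angus (difference -1.94, FDR = 9.12e-08), and C13H20orf112 fell by 1.6 and 3.31 (difference 1.70). Of the 30 immediate-early factors, 13 were called lower in Holstein and 4 in Angus, and the difference was called for 8, all more positive in Angus, among them HES1 and EGR3 (difference -1.11). FOSB, LIF, NFKBIA and TNFAIP3 did not pass the test of the difference, with values of -0.84, 0.36, -0.01 and 0.56.

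**Figure D4:**
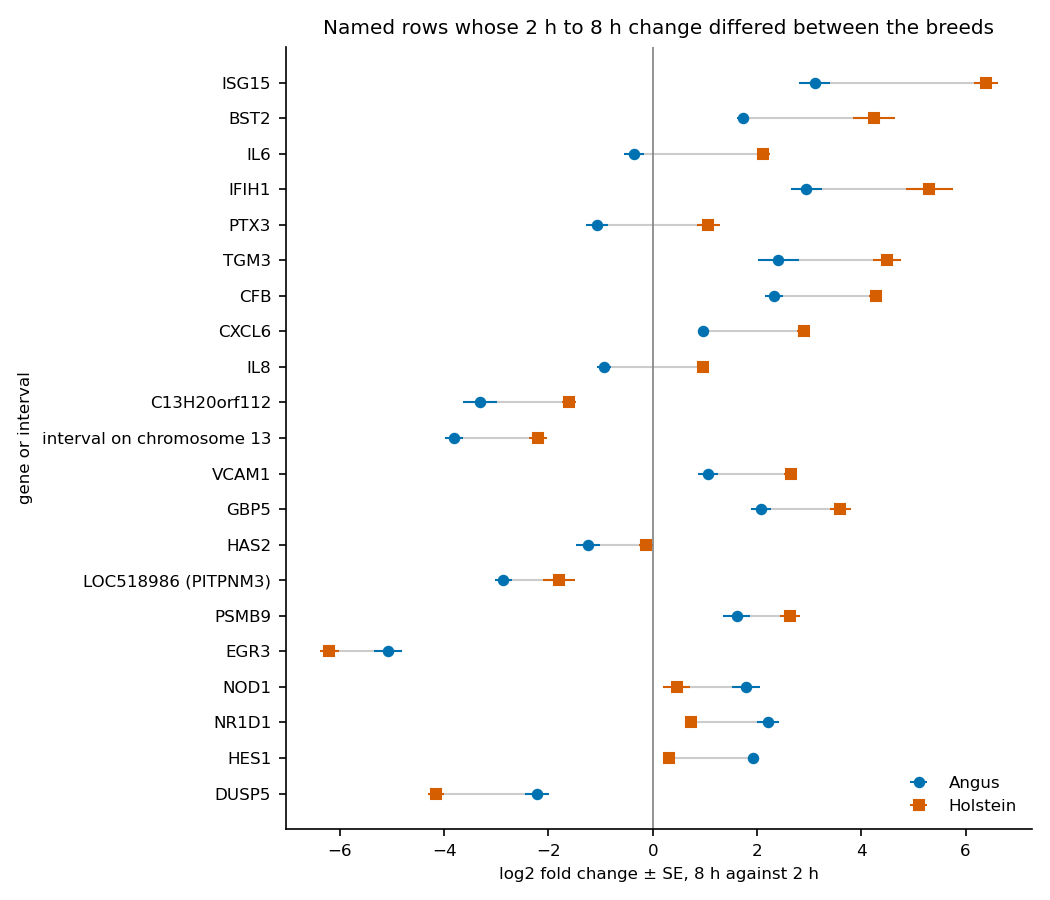
Log2 fold change ± SE at 8 h against 2 h of LPS in Angus (circles) and Holstein (squares), 4 animals each, for the 21 named rows whose change differed between the breeds. The change was more positive in Holstein for 16 rows, with ISG15 at 6.39 against 3.11 and IL6 at 2.12 against -0.36, and more positive in Angus for 5 rows, among them HES1 at 1.92 against 0.30.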

How the data were processed

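Poly-A enriched libraries were sequenced on an Illumina instrument, and the submitters' processing notes name CASAVA 1.7. The authors removed short and low-quality reads, mapped the rest to UMD v3.1 with NextGENe 2.3.4 and deposited, for each sample, whole-number read counts per row that were not normalized, beside the mean coverage of the row. The deposited coverage signal served to compare how libraries were counted. Each table held 59846 rows, 27550 with a gene symbol. Counting did not use strand and covered whole gene spans, so overlapping genes share counts and levels are not compared between genes.

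Samples were grouped by the labels. Rows with at least 1 CPM in 50% of the samples compared were tested with edgeR 4.0.16 (R 4.3.3) after TMM scaling, by a generalized linear model likelihood-ratio test with Benjamini-Hochberg adjustment. The animal was a block, and every comparison had its own fit of 8 samples. For the interaction of breed and hour, 16 samples entered with the 8 animals as the block. A row was called at FDR below 0.05, FC of at least 2 and a mean above 1 CPM. Intervals of the log2 FC are at 95%. Adjusted p-values rest on the spread of the change within animals, since the block takes up differences between animals. They draw on 4 animals per group and on a dispersion estimate that borrows from other rows. After removal of group means, samples of the same animal correlated with r of 0.634 to 0.726 across rows, and those of different animals with r of -0.596 to 0.239, which together with the labels makes the numbers a pairing. Levels are TMM-scaled CPM over all 24 libraries, and SE came from the information matrix.

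Alternatives were a fit with no block, the quasi-likelihood F test, DESeq2 1.42.0, other size factors, total-count scaling, no filter, rows with a symbol only, FDR alone and each animal left out. The fits were tested on simulated counts.

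Named genes were the 10 largest falls and rises with a symbol that went the same way in 4 of 4 animals, up to 4 called members of each of 25 gene lists, the 6 persisting genes with the largest difference between hours 8 and 0, a fixed set of 6 immune genes, and the 2 largest falls and rises of intervals. Symbols on several rows, such as IL6, were left out except in the fixed set. Lists and comparisons were chosen with earlier results of these data known. The lists held 561 genes found in the tables, and 432 of 567 rows were tested. Of 12906 tested symbols, 11750 were matched to names in RefSeq. No sequence or exon annotation of UMD v3.1 was used here. One gene that the rule names is not reported here.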

Additional observations from a re-analysis of the deposited data

Results flagged for a closer look

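Over the 75 named rows, 150 groups of 4 Angus libraries were examined for a library far from the other 3 by Dixon's gap test at the 95% level. Chance flags about 1 group in 20 where groups are independent and values are normally distributed. The CPM were not on a log scale and the groups share libraries, so that rate need not hold here. In 20 groups a library stood apart. Most of these libraries were those of animal 3, which was highest at hour 2 for KCNE4 (1.94 CPM), ISG15 (2.84 CPM), IFIH1 (1.92 CPM), CFB (54.4 CPM), TNFAIP2 (12.1 CPM), PTX3 (49.7 CPM), ARRDC3 (18.8 CPM), TNF (1.44 CPM) and CCL20 (6.39 CPM), and at hour 8 for ISG15 (14.2 CPM), CFB (186 CPM) and TNFAIP2 (1.64 CPM). The library of animal 3 at hour 2 also has the other counting of COL1A1, as has that of animal 4 at hour 0, and its part in these levels was not tested, while the library of animal 3 at hour 8, which also stood high for ISG15, CFB and TNFAIP2, had 115.4 covered bases per count of COL1A1 and did not stand apart in that measure.

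The other gaps were animal 1 at hour 8, high for HBEGF (0.931 CPM) and CD83 (0.625 CPM), animal 2, high at hour 2 for LOC100848155 (1.40 CPM), CTGF (3817 CPM) and HEY2 (5.91 CPM) and at hour 8 for HEY2 (2.57 CPM), and animal 4, high at hour 2 for KIAA0226L (3.50 CPM). For the interval on chromosome 2 from 122257546 to 122290756, the lowest library at hour 2 was that of animal 2 (1.97 CPM).

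The 21 named rows whose change from hour 2 to hour 8 differed between the breeds were flagged by the edgeR test of the interaction. The change was more positive in Holstein, by these log2 differences, for ISG15 (3.14), BST2 (2.52), IL6 (2.50), IFIH1 (2.33), PTX3 (2.14), TGM3 (2.1), CFB (1.97), CXCL6 (1.94), IL8 (1.90), C13H20orf112 (1.70), the interval beside it on chromosome 13 (1.63), VCAM1 (1.6), GBP5 (1.53), HAS2 (1.13), LOC518986 (1.08) and PSMB9 (1.04). It was more positive in Angus for DUSP5 (-1.94), HES1 (-1.61), NR1D1 (-1.46), NOD1 (-1.32) and EGR3 (-1.11). Of the 21, 14 were called in every fit that left out 1 animal of either breed and could test them, 16 under the quasi-likelihood F test and 4 with no replicate block. LOC518986 and PSMB9 were each called in only 2 of the 8 fits that left out an animal, and the call for HAS2 was lost without Angus animal 3 (0.80). EGR3 lost its call without Angus animal 1 or 3 or Holstein animal 2, at -1.21 to -1.0 over the 8 fits.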

How the results depend on the processing

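The counts of calls kept within 1.5 times of the values in the report under the quasi-likelihood F test (323 lower, 223 higher), DESeq2 (336 and 217), other size factors, no filter on low values and each animal left out (336 to 361 lower, 218 to 293 higher). Total-count scaling gave 203 lower, 441 higher and 226 late rows, and 208 in place of 110 rows that had fallen at hour 2 and rose again. With rows that carry a symbol alone, 192 were lower, 152 higher, 121 decayed and 69 started late, by construction of that set. With the FDR limit alone, 3288 were lower, 3389 higher, 1891 decayed, 636 persisted and 1140 started late, and 1280 differed between the breeds. The fit with no replicate block, which ignores the pairing by animal, gave 285 lower and 198 higher rows, 186 decayed, 57 persisted and 99 late, and 58 rows in place of 194 for the difference between breeds. Among the 72 named rows tested, some of which had no call, 12 lost their call in this fit (ISG15, CFB, NR4A1, ZC3H12A, CXCL2, CCL26, PTX3, VCAM1, CTGF, HEY2, NOTCH3 and the interval on chromosome 18). The fits for the breed difference that left out a Holstein animal, added after seeing the data, gave 161 to 227 rows. No named row turned its direction under any of these alternatives. Under total-count scaling, ZC3H12A, CCL26, CSF1, PTX3 and CTGF lost their calls, and CCL5, CXCL6 and DRD3 gained one. Depth limited rows near 1 CPM: TNF and CCL20 were not tested in Angus, and ISG15, TNFAIP2, CCL26 and the interval on chromosome 18 did not reach the filter without animal 3, nor did CCL26 without animal 2.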
